A study of Mus musculus with 6 samples.

Results

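The collagen receptors of mouse embryonic fibroblasts were described across 6 RNA libraries. They were taken as the integrin α subunits Itga1, Itga2, Itga10 and Itga11, their shared β1 partner Itgb1, and the discoidin domain receptors Ddr1 and Ddr2. The members were chosen by gene symbol, with the protein-coding row used where a symbol repeats, and all 7 were found among the 55487 genes of the count table. All 7 also passed the filter on low counts that left 16962 genes for testing.

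Mouse embryonic fibroblasts (MEFs) are primary cells grown out of embryos. Poly(A) RNA was sequenced from wild-type MEFs at passage 6 (P6), labelled senescent, and at passage 1 (P1), labelled non-senescent. At each passage 1 library came from cells given 20 µM α-amyrin, 1 from cells given 20 µM β-amyrin and 1 from vehicle-treated cells, with 3 days as the treatment time. All cells were kept in DMEM with 10% fetal bovine serum and antibiotics. α-Amyrin and β-amyrin are plant triterpene isomers built on the ursane and the oleanane skeleton, which place a methyl group of the last ring differently. No condition had a replicate library. Nothing in the labels shows that the libraries came from separate cultures, so p-values measure only the spread among these libraries, which may be technical. Whether the P6 and P1 cells stem from a common isolate is not stated either, so passage and isolate cannot be told apart.

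Total counts ran from 18798418 in the P6 α-amyrin library to 28752332 in the P1 α-amyrin library, so the α-amyrin libraries were the shallowest and the deepest of the 6. The fibroblast label was checked against 8 marker genes, and 8 of 8 had at least 1 CPM (read counts scaled to a common library size) in every library; their summed level was 19814 to 24085 CPM at P6 and 22167 to 26558 CPM at P1. Of these 8 markers, 4 were lower in every P6 library than in any P1 library and 1 was higher. Among all 16962 genes tested, 32.2% were lower and 32.5% higher in this way. Dcn, for instance, had 22.1 to 29.6 CPM at P6 and 86.5 to 121 CPM at P1. Markers of other cells differed between passages too. The 12 macrophage markers summed to 3599 to 5048 CPM at P6, against 41.3 to 325 CPM at P1. In every P6 library 12 of 12 were higher than in any P1 library, against 32.5% of all genes tested. Smooth muscle and pericyte markers summed to 3131 to 3896 CPM at P6 and 4704 to 5781 CPM at P1, chondrocyte markers to 113 to 178 CPM at P6 and 443 to 493 CPM at P1, and mesothelial markers to 9.18 to 10.9 CPM at P6 and 162 to 205 CPM at P1. Endothelial markers summed to at most 12.4 CPM at P6 and 41.1 CPM at P1, and epithelial markers to at most 1.47 CPM at P6 and 19.1 CPM at P1. Platelet markers summed to 15.2 to 19.5 CPM at P6 and 7.08 to 7.75 CPM at P1, with Gp6 at 0 in every library. In bulk RNA, fewer cells of a type and less RNA per cell cannot be told apart, and this holds for each result here.

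Integrins are αβ heterodimers that tie the matrix outside a cell to the actin cytoskeleton inside it. The α subunits 1, 2, 10 and 11 carry an inserted I domain that binds triple-helical collagen, and each pairs with β1 alone, whereas β1 also pairs with many other α subunits. The α11β1 receptor is known from mesenchymal cells, where it binds fibrillar collagens and takes part in the reorganisation of collagen by fibroblasts. DDR1 and DDR2 are receptor tyrosine kinases that are switched on slowly and for a long time by collagen, DDR1 being known mainly from epithelia and DDR2 mainly from mesenchyme.

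In mm10 coordinates of the deposited annotation, Itga11 (ENSMUSG00000032243) lies at chr9:62677826-62783982 on the plus strand. Itgb1 (ENSMUSG00000025809) lies at chr8:128685654-128733200 on the plus strand and Itga10 (ENSMUSG00000090210) at chr3:96645584-96664519 on the plus strand. Itga2 (ENSMUSG00000015533) at chr13:114833081-114932100 and Itga1 (ENSMUSG00000042284) at chr13:114953096-115101964 are neighbours on the minus strand, with 20995 bases between them. Ddr1 (ENSMUSG00000003534) lies at chr17:35681567-35704621 and Ddr2 (ENSMUSG00000026674) at chr1:169972307-170110762, both on the minus strand. Part of the Itga10 exons, 33.5% of their bases, is shared with the same-strand gene Gm42957, which had 0 to 2 counts. Reads from the shared part could have been given to either gene or to neither, and the Itga10 values are uncertain to that extent. Itga1 shares 3.68% of its exon bases with the same-strand gene Gm49395, which had 2 to 9 counts. Ddr1 shares 4.52% with the antisense gene Gm4577, which had 1 to 12 counts, and Ddr2 shares 0.972% with the antisense gene 3110045C21Rik, which had 45 to 99 counts. The sources used here do not say whether counting used strand.

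Promoter windows of 250 bases before the start were taken from RefSeq (GRCm38.p6, the build also called mm10), where all 7 members had an entry. Those of Itga11 and Itgb1, the members whose RNA was higher at P6, and of Itga2, whose RNA was lower there, are shown. They run 5′ to 3′ on the strand of the gene. Ddr1, whose RNA was lower at P6 as well, had 4 windows, which are not shown. Capitals mark matches, on either strand, to the GC box GGGCGG, the E-box CANNTG, the TATA box TATAAA, the TEAD motif GGAATG, the AP-1 motif TGANTCA or the SMAD palindrome GTCTAGAC; no matches overlapped in these windows. The windows lie at chr9:62677605-62677854 (Itga11, plus strand), chr8:128685404-128685653 (Itgb1, plus strand) and chr13:114932101-114932350 (Itga2, minus strand). The RefSeq start of Itga11 lies inside the deposited gene model, which begins at chr9:62677826, so the end of its window overlaps that model.
Itga11: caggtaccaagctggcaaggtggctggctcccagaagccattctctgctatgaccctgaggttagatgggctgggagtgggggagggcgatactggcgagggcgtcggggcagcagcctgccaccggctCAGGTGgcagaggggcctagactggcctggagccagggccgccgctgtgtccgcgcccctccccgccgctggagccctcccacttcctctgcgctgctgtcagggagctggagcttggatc
Itgb1: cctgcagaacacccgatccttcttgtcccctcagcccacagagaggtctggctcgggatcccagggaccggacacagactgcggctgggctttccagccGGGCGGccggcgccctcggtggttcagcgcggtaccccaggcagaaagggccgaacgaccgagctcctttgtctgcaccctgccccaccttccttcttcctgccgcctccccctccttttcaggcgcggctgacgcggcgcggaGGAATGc
Itga2: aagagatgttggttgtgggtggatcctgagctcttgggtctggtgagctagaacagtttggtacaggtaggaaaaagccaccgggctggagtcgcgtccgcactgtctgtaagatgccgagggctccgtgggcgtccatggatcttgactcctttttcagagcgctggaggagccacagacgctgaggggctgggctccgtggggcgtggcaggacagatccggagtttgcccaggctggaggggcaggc
The Itga11 window holds 1 E-box and no other match, the Itgb1 window 1 GC box and 1 TEAD motif, and the Itga2 window none of the 6 motifs. The 4 Ddr1 windows hold 1, 0, 1 and 3 GC boxes and 2, 0, 1 and 1 E-boxes. The window with 1 of each also holds 1 AP-1 motif. An E-box is found in 66.2% of all 32851 RefSeq windows of that length, a GC box in 32.7%, a TEAD motif in 12.6%, a TATA box in 12.4%, an AP-1 motif in 6.75% and the SMAD palindrome in 0.167%. The GC content was 68.4% for Itga11, 68% for Itgb1 and 60.8% for Itga2, against a median of 52.4% over all windows. Letters that match a motif are a description of the sequence and do not show that a factor binds there.

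Levels of different genes were compared as the deposited FPKM, a unit scaled for gene length and library size. These values are not a plain rescaling of the deposited counts. At P6 Itga2 had 1.49 CPM and 0.225 FPKM under α-amyrin, against 1.71 CPM and 0.214 FPKM under β-amyrin. Itgb1 was by far the most abundant, with a mean of 681 FPKM at P6 and 518 FPKM at P1. Below it the order depended on passage. Itga11 came next at P6, with 57.8 FPKM under α-amyrin, 69.8 FPKM under β-amyrin and 89.5 FPKM under vehicle, above Ddr2 with 52.8, 52.0 and 47.9 FPKM in the same libraries. At P1 Ddr2 was higher than Itga11, with 53.9, 53.7 and 51.0 FPKM for Ddr2 against 22.8, 30.5 and 37.9 FPKM for Itga11 under α-amyrin, β-amyrin and vehicle. Ddr1 averaged 20.8 FPKM at P6 and 26.5 FPKM at P1. Its P1 range of 24.6 to 27.8 FPKM overlapped that of Itga11, so the order of these neighbours at P1 was not separated by the spread among libraries. The remaining members were rare, Itga1 at 1.97 FPKM at P6 and 2.1 FPKM at P1, Itga10 at 0.863 FPKM at P6 and 0.781 FPKM at P1, and Itga2 at 0.210 FPKM at P6 and 0.447 FPKM at P1. These 3 did not overlap with each other in any passage. Itga1 has the longest exon model of the 7, 18599 bases, and a level per length depends on that length.

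Measured as FPKM, Itga11 made up nearly all of the collagen-binding α subunit RNA at both passages. This share depends on the gene lengths used, above all on the long exon model of Itga1. In CPM, which is not scaled for length, Itga11 had 288 to 451 and Itga1 33.2 to 38.1 at P6. At P1 these were 111 to 190 CPM for Itga11 and 32.4 to 42.5 CPM for Itga1. Its share of the summed FPKM of the 4 subunits was 95.3% under α-amyrin, 95.9% under β-amyrin and 96.5% under vehicle at P6, against 88.1%, 89.1% and 92.3% under the same treatments at P1. Every P6 library lay above every P1 library, with means of 95.9% ± 0.614 at P6 and 89.8% ± 2.23 at P1 (SD over 3 libraries that differ in treatment). The two-sided exact permutation test, which did not pair libraries by treatment, gave p = 0.1, the smallest p that 3 against 3 libraries allow. Set against the partner, there were 8.80, 9.90 and 13.1 FPKM of Itga11 per 100 FPKM of Itgb1 under α-amyrin, β-amyrin and vehicle at P6, against 4.79, 5.74 and 6.94 at P1. At both passages the vehicle library had the most Itga11 per Itgb1 and the α-amyrin library the least. The ratio of Ddr2 to Ddr1 FPKM was 2.68, 2.44 and 2.25 at P6 and 1.94, 2.19 and 1.89 at P1 in the same order of treatments, so the P6 libraries again lay above those of P1 (exact permutation p = 0.1).

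**Figure D1:**
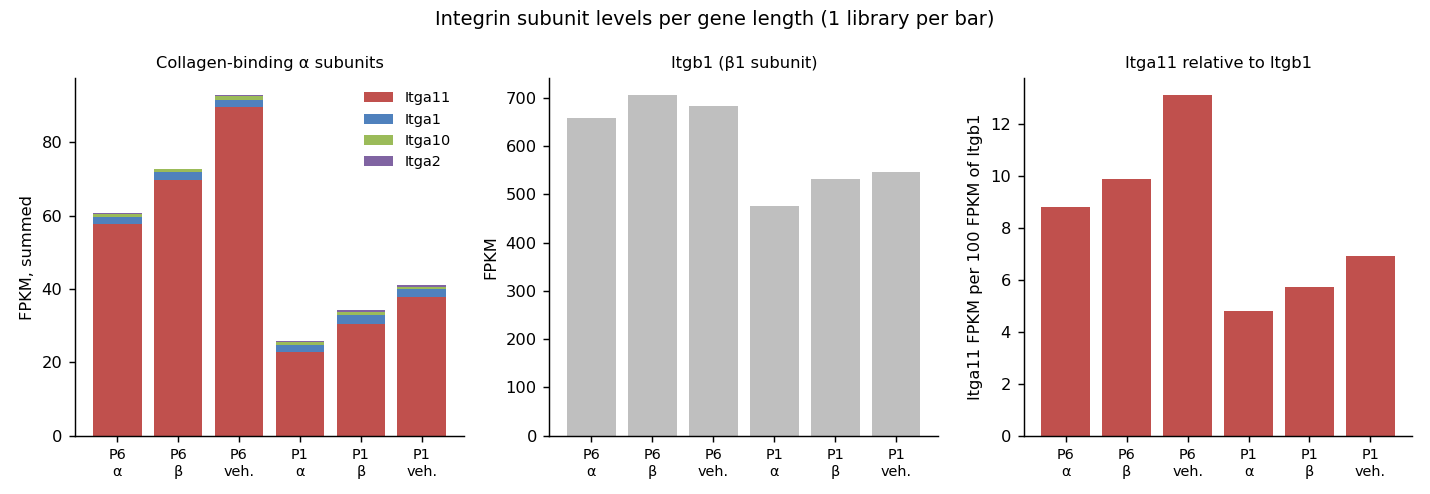
Deposited FPKM of the 4 collagen-binding α subunits stacked (left), of Itgb1 (middle), and FPKM of Itga11 per 100 FPKM of Itgb1 (right), 1 bar per library, P6 libraries left of P1 libraries. Itga11 fills 88.1% to 96.5% of each stack, and its ratio to Itgb1 is 8.80 to 13.1 in the P6 libraries and 4.79 to 6.94 in the P1 libraries.

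The first comparison asked how receptor RNA at P6 differed from that at P1, with treatment as an additive term. The integrin that dominates the set rose: Itga11 and its partner Itgb1 were higher at P6, whereas Ddr1 and Itga2 were lower, and Ddr2, Itga1 and Itga10 did not pass the test. So 4 of 7 members were called at an adjusted p below 0.05 in edgeR's quasi-likelihood test, 2 higher and 2 lower. Among all 16962 genes tested, 59.2% were called, 30.0% higher and 29.1% lower, so the share of members called was close to that of all genes. In the same way Itga11 and Itgb1 lay above P1 in every P6 library, as did 32.5% of all genes, and Itga2 and Ddr1 lay below it in every P6 library, as did 32.2%.

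Itga11 encodes the α11 chain. Its level was 288 CPM under α-amyrin, 355 CPM under β-amyrin and 451 CPM under vehicle at P6, against 111, 154 and 190 CPM under the same treatments at P1. The lowest P6 library was above the highest P1 library. The fitted log2 fold change was 1.27 ± 0.05 (SE; 95% interval 1.15 to 1.39; edgeR adjusted p = 6.02e-06), a 2.42-fold higher level at P6, and its p ranked 149 among all genes tested. Within single pairs of libraries the log2 ratio of P6 over P1 was 1.38 under α-amyrin, 1.20 under β-amyrin and 1.25 under vehicle. Each pair was past 2-fold, a size that 5.72%, 5.68% and 5.60% of tested genes reached upwards with at least 5 CPM in 1 of the libraries under α-amyrin, β-amyrin and vehicle; single pairs have no replicate check.

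Itgb1 encodes β1, the partner of all 4 α chains. It had 2635, 2863 and 2772 CPM under α-amyrin, β-amyrin and vehicle at P6, against 1869, 2149 and 2199 CPM at P1. The passages did not overlap, and the log2 fold change was 0.41 ± 0.05 (edgeR adjusted p = 0.000296), a 1.33-fold higher level at P6. The intervals of the Itga11 and the Itgb1 change, 1.15 to 1.39 and 0.30 to 0.52 on the log2 scale, were apart, although the difference itself was not tested.

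Ddr1 fell. It had 91.8, 102 and 99.9 CPM at P6, against 128, 117 and 126 CPM at P1 under α-amyrin, β-amyrin and vehicle, with no overlap. The log2 fold change was -0.34 ± 0.06 (edgeR adjusted p = 0.00289), a level at P6 of 0.789 times that at P1. Itga2, the α2 chain of a receptor best known from platelets and epithelia, was the rarest member at 28 to 92 counts per library. It had 1.49, 1.71 and 1.27 CPM at P6, against 2.51, 3.70 and 2.76 CPM at P1, again without overlap, and its log2 fold change was -1.0 ± 0.19 (edgeR adjusted p = 0.00357). The summed epithelial and mesothelial markers given above were lower at P6 too. Of these, 5 of 7 and 6 of 6 were below P1 in every P6 library, as were 32.2% of all genes tested. The epithelial sum was low throughout, at most 19.1 CPM in any library. Summed platelet markers went the other way, with 15.2 to 19.5 CPM at P6 against 7.08 to 7.75 CPM at P1. Among them 3 of 5 were above P1 in every P6 library, as were 32.5% of all genes tested. The part of these lists in the Ddr1 and Itga2 values was not tested.

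Ddr2, the mesenchymal collagen kinase, had 473, 470 and 434 CPM at P6, against 471, 487 and 459 CPM at P1, and the passages overlapped. Its log2 fold change was -0.04 ± 0.04 with a 95% interval from -0.14 to 0.06 (edgeR adjusted p = 0.426), so a change of the size seen for Ddr1 lay outside the interval. Itga1, the α1 chain that prefers the type IV collagen of basement membranes, had 33.2, 38.1 and 35.7 CPM at P6, against 32.4, 42.5 and 38.0 CPM at P1. Its passages overlapped too, and the log2 fold change was -0.07 ± 0.06 (95% interval -0.22 to 0.08; edgeR adjusted p = 0.363). Although Itga1 and Itga2 are neighbours on the same strand, their passage intervals, -0.22 to 0.08 for Itga1 and -1.46 to -0.55 for Itga2, did not meet. Itga10, the chain of the cartilage receptor for type II collagen, had 3.72, 3.62 and 5.20 CPM at P6, against 4.11, 3.98 and 3.18 CPM at P1, from 70 to 123 counts per library. Its log2 fold change of 0.15 ± 0.20 did not pass the test (edgeR adjusted p = 0.559) and turned negative without the vehicle library of either passage, at -0.15 in both cases.

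**Figure D2:**
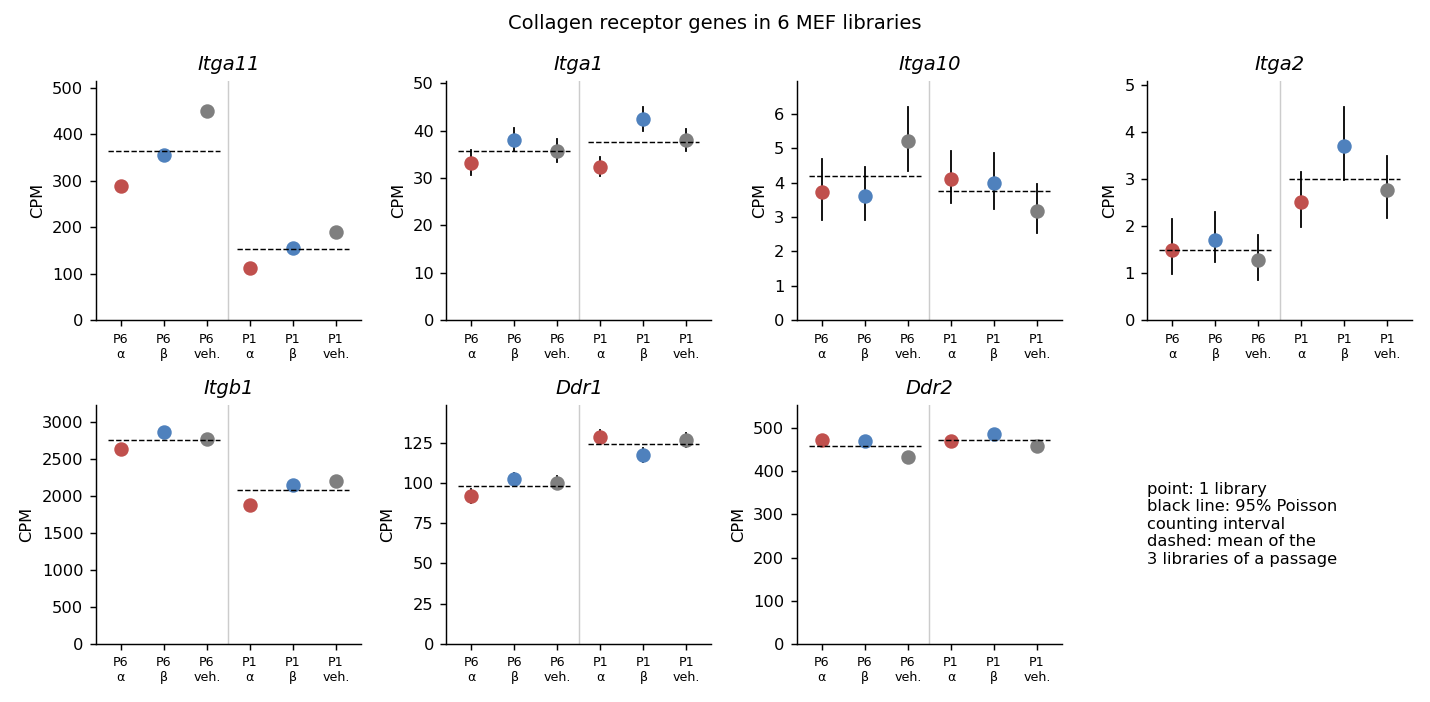
CPM of each of the 7 genes in each library (1 panel per gene, own scale from 0), with P6 libraries left of P1 libraries, 95% Poisson counting intervals as black lines and the mean of each passage dashed. The 3 P6 libraries lie above the 3 P1 libraries for Itga11 and Itgb1 and below them for Itga2 and Ddr1; within each passage Itga11 is lowest under α-amyrin and highest under vehicle.

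The next comparison asked what α-amyrin did to the receptors, fitted over both passages. Itga11 fell. In the P6 libraries it had 288 CPM under α-amyrin against 451 CPM under vehicle, and in the P1 libraries 111 CPM under α-amyrin against 190 CPM under vehicle. The single-pair log2 ratios were -0.64 at P6 and -0.78 at P1, or -36.0% and -41.6%, so α-amyrin libraries were lower at both passages. The fitted log2 fold change was -0.71 ± 0.06 (95% interval -0.85 to -0.56; edgeR adjusted p = 0.0424), a level of 0.612 times vehicle, and its p was the third smallest of all genes tested. Itga11 was the only 1 of 7 members called, where 0.0295% of tested genes were called in either direction and 0.0177% lower.

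The Itga11 call under α-amyrin was close to the threshold and depended on the libraries and the method. Leaving out single libraries kept the log2 fold change between -0.78 and -0.64. The edgeR adjusted p became 0.0523 without the P6 α-amyrin, 0.162 without the P6 vehicle, 0.314 without the P1 α-amyrin and 0.0868 without the P1 vehicle library, whereas it was 6.33e-05 without the P6 β-amyrin and 0.000138 without the P1 β-amyrin library. It was 1.77e-15 in DESeq2, which called 1.49% of its genes, and 0.0604 in edgeR with a CPM of at least 1 in 3 libraries as the filter. With limma on log2(FPKM + 1) it was 0.304, and on log2(FPKM + 0.1) it was 0.281. Summed fibroblast markers were 19814 CPM under α-amyrin against 24085 CPM under vehicle at P6, and 22167 CPM against 26558 CPM at P1. That lower sum came from Col1a1, Col1a2 and Pdgfrb, of which Col1a1 and Col1a2 are also collagen ligands; the other 5 of 8 markers, among them Dcn with 27.9 CPM against 22.1 CPM at P6 and 121 CPM against 86.5 CPM at P1, were higher under α-amyrin at both passages. Smooth muscle and pericyte markers were 3131 CPM under α-amyrin against 3896 CPM under vehicle at P6, and 4704 CPM against 5562 CPM at P1, with 5 of 7 markers lower at both passages. The part of either list in the Itga11 value was not tested.

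No other member passed the test under α-amyrin. Itgb1 had a log2 fold change of -0.15 ± 0.06 (edgeR adjusted p = 0.370), with single-pair log2 ratios of -0.07 at P6 and -0.23 at P1. Its unadjusted p of 0.0310 was 1 of 2 members' below 0.05, where 11.8% of all genes had one. Itga1 had -0.17 ± 0.08 (edgeR adjusted p = 0.456) and Ddr2 0.08 ± 0.05 (edgeR adjusted p = 0.596). For Ddr1 the fitted log2 fold change was -0.05, with a 95% interval from -0.23 to 0.13. The rarest members had the widest 95% intervals, from -0.66 to 0.53 for Itga10 and from -0.56 to 0.56 for Itga2.

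β-Amyrin was set against the same vehicle libraries, so the α- and β-amyrin values share their reference. Itga11 had 355 CPM under β-amyrin against 451 CPM under vehicle at P6, and 154 CPM against 190 CPM at P1. The single-pair log2 ratios were -0.34 at P6 and -0.30 at P1. The fitted value, -0.32 ± 0.06 (95% interval -0.47 to -0.18), did not pass the test over all genes (unadjusted p = 0.00122, edgeR adjusted p = 0.215). It passed in DESeq2 (adjusted p = 0.00994), with no filter on low counts in edgeR (adjusted p = 0.00190) and without the P1 β-amyrin library (edgeR adjusted p = 0.0364); over 12 alternatives the adjusted p ran from 0.00190 to 0.564. In edgeR 0 of 7 members were called, where 0.00590% of genes were; 1 member had an unadjusted p below 0.05, as did 10.3% of genes, and DESeq2 called 1 member and 0.761% of its genes. The largest other fitted value was that of Itga2, 0.42 ± 0.23, with a 95% interval from -0.12 to 0.96. Ddr2 had 0.10 ± 0.05 and single-pair log2 ratios of 0.11 at P6 and 0.09 at P1, and Itgb1 had 0.01 ± 0.06; neither passed the test (edgeR adjusted p = 0.551 for Ddr2 and 0.980 for Itgb1).

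**Figure D3:**
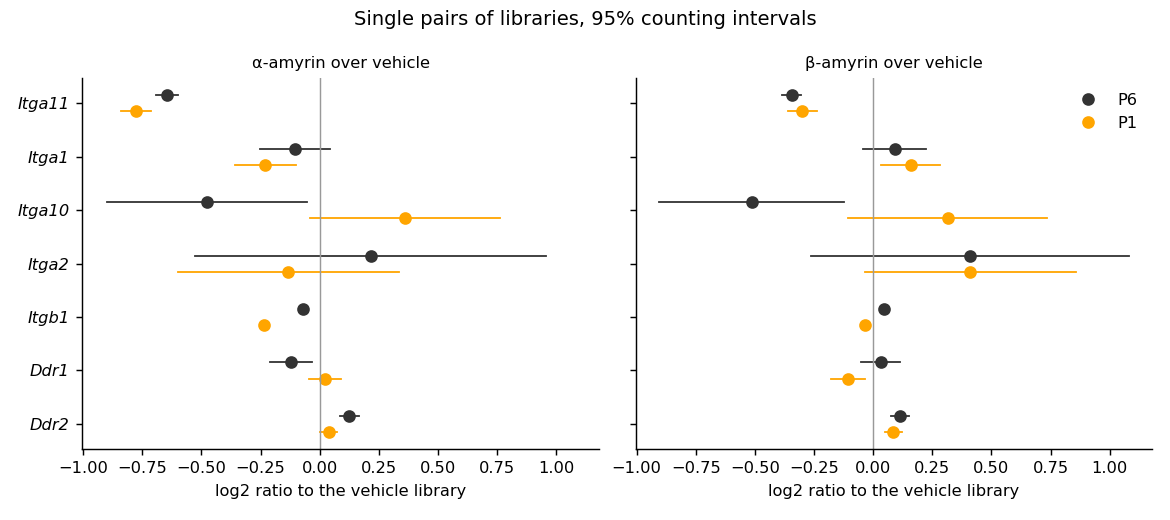
Log2 ratio of each compound library to the vehicle library of its passage (x axis; α-amyrin left, β-amyrin right) for the 7 genes, P6 in black and P1 in orange, lines being 95% counting intervals that cover counting error only. Itga11 is below 0 in all 4 pairs, from -0.78 to -0.30, while Itga10 is below 0 at P6 and above 0 at P1 with both compounds.

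The isomers were compared directly, as 1 pair of compounds at the same dose and time. Itga11 was lower under α-amyrin than under β-amyrin at both passages, with single-pair log2 ratios of -0.30 at P6 and -0.48 at P1. The fitted difference was -0.39 ± 0.06 with a 95% interval from -0.53 to -0.24 (unadjusted p = 0.000432, edgeR adjusted p = 0.152), so it did not pass the test over all genes. It did in DESeq2 (adjusted p = 0.000439), with no filter on low counts (edgeR adjusted p = 0.000181) and without the P6 β-amyrin library (edgeR adjusted p = 0.00692); over 12 alternatives the adjusted p ran from 0.000181 to 0.685. Itga1 had 33.2 CPM under α-amyrin against 38.1 CPM under β-amyrin at P6, and 32.4 CPM against 42.5 CPM at P1, a fitted difference of -0.30 ± 0.08 (unadjusted p = 0.00657, edgeR adjusted p = 0.322). For Itgb1 the difference was -0.16 ± 0.06 (edgeR adjusted p = 0.490; 0.0465 with no filter on low counts and up to 0.938 among 12 alternatives). These were the 3 members with an unadjusted p below 0.05, against 9.21% of all genes. In edgeR 0 of 7 were called, where 0.0590% of genes were, and in DESeq2 1 member and 0.777% of its genes. The 95% intervals of the difference were -0.14 to 0.10 for Ddr2 and -0.19 to 0.17 for Ddr1.

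Whether the amyrin response differed between passages was tested by pooling both compounds into 1 amyrin group per passage, which assumes that the isomers act alike. For Itga11 the difference, P6 minus P1, was 0.03 ± 0.30 with a 95% interval from -0.70 to 0.76 (edgeR adjusted p = 1.00). That interval is wide, since the isomers' own difference counts as error in this fit. Itga10 had the largest value of the 7, -0.85 ± 0.30 (unadjusted p = 0.0279, edgeR adjusted p = 1.00). In edgeR 0 of 7 members and 0% of genes were called, and 1 member and 2.66% of genes had an unadjusted p below 0.05. DESeq2 called 0.124% of genes and 0 members.

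**Figure D4:**
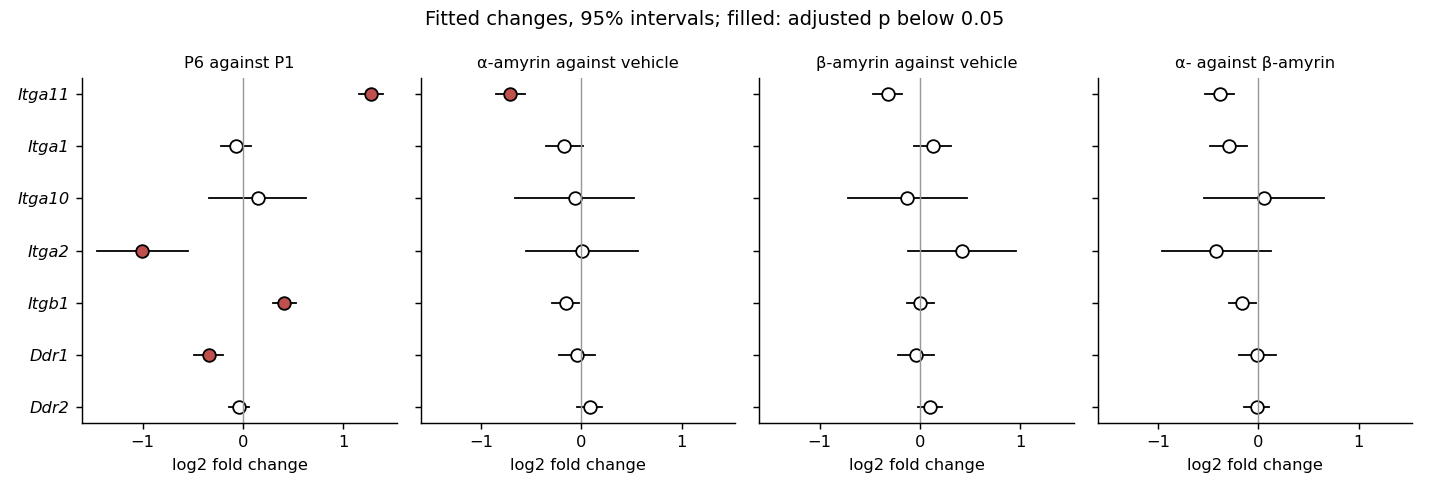
Fitted log2 fold changes of the 7 genes (points) with 95% intervals from edgeR (lines) for P6 against P1, α-amyrin against vehicle, β-amyrin against vehicle and α- against β-amyrin, left to right; filled points have an adjusted p below 0.05. The 4 filled points at left are Itga11 (1.27), Itgb1 (0.41), Ddr1 (-0.34) and Itga2 (-1.0), and under α-amyrin the filled point is Itga11 (-0.71).

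The other genes of the adhesion pathway were counted in lists and read against the same background of 30.0% higher and 29.1% lower; the median passage change of all genes tested was 0.00 on the log2 scale. Of 8 listed α subunits that can pair with β1 and lack the collagen-binding domain, 5 were higher and 1 lower at P6, with a median log2 fold change of 0.48. The lower ones were 2 without the P6 or the P1 α-amyrin library and with no filter on low counts. The list leaves out α chains of other β partners, such as the leukocyte chain Itgam, which had 25.1 to 59.7 CPM at P6 and 0.241 to 4.53 CPM at P1, and the platelet chain Itga2b, which had 3.30 to 4.18 CPM at P6 and 2.69 to 3.45 CPM at P1. Itga4, a chain of leukocyte and embryonic receptors for fibronectin and VCAM1, rose by 1.66 ± 0.10 (edgeR adjusted p = 2.64e-05), with 35.7 to 52.1 CPM at P6 and 10.9 to 16.3 CPM at P1. Itga6, a laminin receptor chain, rose by 1.56 ± 0.05 (edgeR adjusted p = 3.19e-06), with 120 to 214 CPM at P6 and 42.8 to 68.9 CPM at P1. Itga3, another laminin receptor chain, fell by 0.93 ± 0.07 on the log2 scale (edgeR adjusted p = 4.79e-05), with 30.2 to 33.0 CPM at P6 and 54.5 to 63.8 CPM at P1. The listed α subunits thus moved in both directions, as the collagen-binding ones did.

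Of 7 other β subunits 6 were tested, 2 of them higher and 2 lower, with a median of -0.29. Itgb5, which pairs with αv to bind vitronectin, rose by 0.92 ± 0.04 (edgeR adjusted p = 1.17e-05). Itgb2, the leukocyte β chain, rose by 4.30 ± 0.42 (edgeR adjusted p = 0.000163), with 99.8 to 115 CPM at P6 and 0.844 to 9.09 CPM at P1. Itgb8, a chain of a receptor that activates TGF-β, fell by 1.08 ± 0.11 on the log2 scale (edgeR adjusted p = 0.000183). Summed macrophage markers stood at 5048, 3599 and 4973 CPM under α-amyrin, β-amyrin and vehicle at P6, against 277, 41.3 and 325 CPM at P1. They were lowest in the P1 β-amyrin library, as Itgb2 was, and their part in the list values was not tested. Itgb6, Fermt1, Gp6 and Col13a1 of the lists had at most 3 counts in any library and were not tested.

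Integrin activators and inhibitors had 13 tested genes, 6 higher and 3 lower, with a median of 0.12. Fermt3, the kindlin of blood cells, rose by 3.45 ± 0.27 (edgeR adjusted p = 6.61e-05), with 39.8 to 60.1 CPM at P6 and 1.33 to 7.10 CPM at P1. The summed macrophage markers were higher at P6 too, and their part was not tested. Fermt2, the kindlin of most adherent cells, fell by 0.65 ± 0.04 on the log2 scale (edgeR adjusted p = 3.90e-05), with 168 to 192 CPM at P6 and 254 to 314 CPM at P1. Apbb1ip, the RAP1 effector that recruits talin, rose by 0.91 ± 0.09 (edgeR adjusted p = 0.000167). The kindlins thus changed in opposite directions between passages.

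Of 24 focal adhesion adaptors and kinases, 9 were higher and 10 lower, with a median of -0.05. Ptk2b, a kinase related to FAK, rose by 1.79 ± 0.08 (edgeR adjusted p = 7.87e-06), and Parvb, an adaptor that binds the integrin-linked kinase, rose by 1.95 ± 0.13 (edgeR adjusted p = 3.10e-05). Bcar1, the scaffold p130Cas, fell by 0.61 ± 0.05 on the log2 scale (edgeR adjusted p = 7.43e-05). Among 10 DDR adaptors and sheddases 6 were higher and 1 lower, with a median of 0.14. The count of 6 became 3 in DESeq2 and 1 without the P6 β-amyrin, P6 vehicle, P1 β-amyrin or P1 vehicle library. Myh10, a non-muscle myosin heavy chain, rose by 0.49 ± 0.04 (edgeR adjusted p = 0.000115), and the adaptor Crkl fell by 0.23 ± 0.05 on the log2 scale (edgeR adjusted p = 0.00870). Ptpn11, the phosphatase SHP2, rose by 0.16 ± 0.04 (edgeR adjusted p = 0.0136), a call lost without the P6 β-amyrin, P6 vehicle, P1 β-amyrin or P1 vehicle library, with edgeR adjusted p between 0.0662 and 0.0817.

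Among 9 tested genes listed as collagen-binding outside the integrin and DDR families, 5 were higher and 2 lower, with a median of 0.18. Without the vehicle library of either passage 1 was lower. The list was drawn broadly, and its calls include Cd93 and Sdc1 among the higher genes and Cd44 among the lower. Lair1, an inhibitory receptor of immune cells, rose by 4.16 ± 0.31 (edgeR adjusted p = 4.89e-05), with 21.9 to 34.9 CPM at P6 and 0.281 to 2.68 CPM at P1. Cd93, a surface protein of myeloid and endothelial cells, rose by 3.09 ± 0.26 (edgeR adjusted p = 8.88e-05). The summed macrophage markers were again higher at P6, and their part in both values was not tested. Mrc2, the endocytic receptor by which fibroblasts take up collagen, rose by 0.49 ± 0.06 (edgeR adjusted p = 0.000479), with 514 to 568 CPM at P6 and 362 to 400 CPM at P1.

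Of 17 tested genes for the collagen ligands 4 were higher and 9 lower at P6, with a median of -0.23. Col10a1, a network-forming collagen of hypertrophic cartilage, rose by 1.52 ± 0.07 (edgeR adjusted p = 1.03e-05). Col2a1, the cartilage collagen, fell by 1.80 ± 0.11 on the log2 scale (edgeR adjusted p = 2.69e-05), with 91.7 to 152 CPM at P6 and 389 to 440 CPM at P1; it is itself 1 of the chondrocyte markers whose sum was lower at P6. Col6a3 of the beaded microfibrils fell by 0.72 ± 0.06 on the log2 scale (edgeR adjusted p = 9.12e-05). Itga11 and Itgb1 thus rose, while the listed ligands moved in both directions, more of them down than up. The list pools chains of different collagen types.

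**Figure D5:**
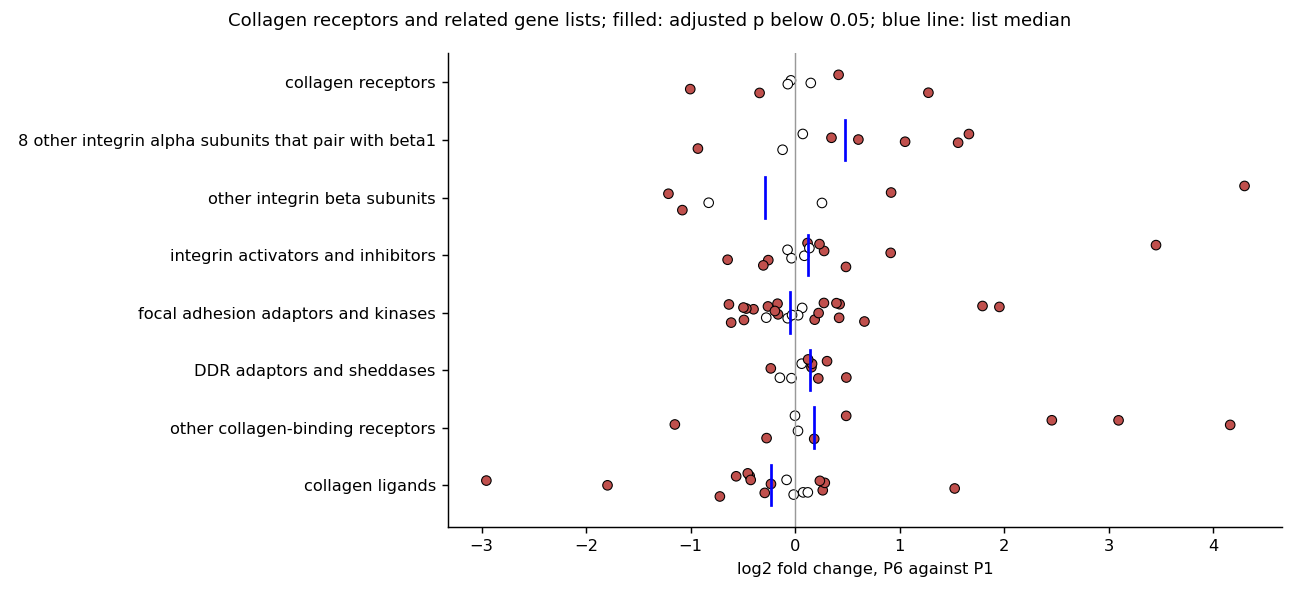
Log2 fold change of P6 against P1 (x axis) for the 7 collagen receptors and for 7 related lists, 1 point per gene tested, filled where the edgeR adjusted p was below 0.05, with each list's median as a blue line (points are spread vertically for legibility). Medians run from -0.29 for other β subunits to 0.48 for the 8 other α subunits that pair with β1, and the points beyond 3 are Itgb2, Fermt3, Lair1 and Cd93.

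With the compounds, 0 of the 87 tested genes of these lists were called in edgeR against vehicle. At an unadjusted p below 0.05 there were 22 under α-amyrin and 9 under β-amyrin, against 11.8% and 10.3% of all genes, and DESeq2 called 9 under α-amyrin and 1 under β-amyrin, where it called 1.49% and 0.761% of all its genes. The collagen ligands had a median log2 fold change of -0.24 under α-amyrin and -0.05 under β-amyrin, against 0.01 and 0.00 for all genes, with 14 of 17 below 0 under α-amyrin and 12 of 17 under β-amyrin. Between the isomers edgeR called Itga6 as the only 1 of the 87, where it called 0.0590% of all genes; DESeq2 called 10, where it called 0.777% of its genes, and 25 had an unadjusted edgeR p below 0.05, against 9.21% of all genes. It had 214 CPM under α-amyrin against 120 CPM under β-amyrin at P6, and 68.9 CPM against 42.8 CPM at P1, with vehicle between them at 172 CPM at P6 and 58.8 CPM at P1. The difference of α- minus β-amyrin was 0.76 ± 0.06 (95% interval 0.62 to 0.91; edgeR adjusted p = 0.0202), the opposite direction to that of Itga11. The adjusted p was 0.163 and 0.151 with limma on log2(FPKM + 1) and log2(FPKM + 0.1), and in edgeR 0.0787, 0.156 and 0.0639 without the P6 α-amyrin, the P1 α-amyrin and the P1 vehicle library; over all 12 alternatives it ran from 1.20e-14 to 0.163.

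Genes that varied most like each member were found by the root mean square difference of log2 CPM profiles over the 6 libraries, each centred on its own mean, among 10787 protein-coding genes with a mean of at least 5 CPM. For Itga11 these were Lpin3 at 0.109, Ttc9 at 0.114 and Parm1 at 0.117. Parm1, for instance, had 32.5, 43.7 and 63.1 CPM under α-amyrin, β-amyrin and vehicle at P6 and 12.9, 18.6 and 20.6 CPM at P1, the same order of treatments as Itga11. For Itgb1 they were Ero1l at 0.0207, Plcxd2 at 0.0312 and Por at 0.0320, and for Itga1 Mterf3 at 0.0409, Nexn at 0.0425 and Csf1 at 0.0447. For Ddr1 they were Pam16 at 0.0235, Scrib at 0.0248 and Mrps11 at 0.0327, and for Ddr2 Kbtbd7 at 0.0190, Slain2 at 0.0195 and Tox4 at 0.0218. The nearest neighbour of Itga11 was farther away than that of any of the other 4 members. The distance is not scaled for the size of the changes, which were largest for Itga11. Pearson r of the 3 named genes was 0.988 to 0.993 for Itga11, 0.990 to 0.997 for Itgb1 and 0.989 to 0.992 for Ddr1. It was 0.947 to 0.978 for Itga1 and 0.907 to 0.984 for Ddr2. With 6 libraries that share passage and treatment, likeness is a description of these profiles only.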

How the data were processed

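Directional libraries were made from poly(A) RNA, per the labels' protocols. The submitters' processing notes name featureCounts 1.6.3, SAMtools 1.9, HISAT2 2.1.0, Trimmomatic 0.38, FastQC 0.11.7 and build mm10, and the sources used here give no settings. The authors deposited raw read counts of each gene. They also deposited FPKM; the sources used here do not say how the authors computed these FPKM values.

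Counts were scaled by TMM and tested with edgeR 4.0.16 (quasi-likelihood, R 4.3.3) over 6 libraries, with treatment and passage as additive terms. Genes were kept by filterByExpr with passage as the group, and p-values were Benjamini-Hochberg adjusted over all 16962 genes, with 0.05 as the threshold. The fit left 2 residual degrees of freedom, so a response that differs between passages counts as error; edgeR's common biological variation came to 7.72%. The ± of a log2 fold change is a standard error from the test statistic. CPM and single-pair ratios used TMM-scaled library sizes, with a prior count of 2 for ratios. Ratios of FPKM were tested with SciPy 1.17.1. Alternatives were RLE scaling, DESeq2 1.42.0, other filters, limma 3.58.1 on log2 FPKM with a pseudocount of 1 or 0.1, a fit without treatment terms, and each library left out; CPM per kilobase of exon in place of FPKM was added after seeing the data.

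The members and lists were chosen with earlier results of these data known. All members are named, at most 3 genes per list by smallest passage p, list genes called between compounds, and the 3 genes nearest to each member with a mean of at least 5 CPM. Poisson intervals cover counting error only.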

Additional observations from a re-analysis of the deposited data

Results flagged for a closer look

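Itga10 was singled out because both amyrin libraries lay on opposite sides of vehicle at the 2 passages. At P6 it had 3.72 CPM under α-amyrin and 3.62 CPM under β-amyrin, against 5.20 CPM under vehicle, and at P1 4.11 and 3.98 CPM against 3.18 CPM. The 95% counting intervals of the log2 ratio to vehicle lay below 0 for both compounds at P6. At P1 they included 0, from -0.04 to 0.76 for α-amyrin and from -0.11 to 0.74 for β-amyrin. The difference in amyrin response, P6 minus P1, was -0.85 ± 0.30 on the log2 scale (95% interval -1.57 to -0.13; unadjusted p = 0.0279, edgeR adjusted p = 1.00), from 70 to 123 counts per library. It did not pass the test over all genes, and its unadjusted p comes from the same values by which Itga10 was singled out. Without single amyrin libraries the value was -0.90 to -0.84, and without either vehicle library it could not be fitted. Both compounds were set against the same vehicle library at each passage, so their ratios are not independent. Leaving out amyrin libraries therefore does not check the vehicle values.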

How the results depend on the processing

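The 4 passage calls among the members kept their direction and stayed past the threshold in every alternative. Counts under the compounds depended on the setting, with 5 genes called for α-amyrin, 1 for β-amyrin, 10 between the isomers and 0 for the passage-by-amyrin term. In that order DESeq2 called 194, 114, 119 and 21 genes, and edgeR with no filter on low counts 464, 404, 484 and 159. The filter of CPM at least 1 in 3 libraries gave 0, 0, 6 and 0 genes, limma on log2 FPKM gave 0 in each with both pseudocounts, and RLE scaling gave 3 for β-amyrin. Leaving out 1 library gave 0 to 367, 0 to 317, 0 to 439 and 0 to 16 genes. The 1 member called for α-amyrin became 0 under the CPM filter and under limma with both pseudocounts; for β-amyrin DESeq2 and no filter each called 1, and between the isomers DESeq2 called 1 and no filter 2. Leaving out 1 library gave 0 to 1 members in each of these 3. The cause was not tested, except that leaving out a library lowers the number of samples.

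Signs turned only for values that had not passed the test. Between the isomers limma gave 0.0311 and 0.0316 for Ddr1 and 0.0128 and 0.0130 for Ddr2 with pseudocounts of 1 and 0.1. For the passage-by-amyrin term Itga1 was -8.54e-05 with no filter and -0.000608 with a pseudocount of 1, and Itga2 was -0.0429 and -0.0598 with pseudocounts of 1 and 0.1. Leaving out 1 library gave ranges on both sides of 0. For passage this held for Itga10 (-0.15 to 0.29). For α-amyrin it held for Itga2 (-0.12 to 0.22), Itga10 (-0.49 to 0.37) and Ddr1 (-0.17 to 0.068). For β-amyrin it held for Ddr1 (-0.15 to 0.065), Itga10 (-0.54 to 0.33) and Itgb1 (-0.051 to 0.055). Between the isomers it held for Itga10 (-0.19 to 0.29), Ddr2 (-0.039 to 0.013) and Ddr1 (-0.12 to 0.11), and for the passage-by-amyrin term for Itga1 (-0.17 to 0.21), Itga2 (-0.091 to 0.45), Itga11 (-0.20 to 0.27) and Ddr1 (-0.10 to 0.057). Of the 3 genes nearest to a member, those also among the nearest 3 by Pearson correlation were 0 for Itga11 and Ddr1, 1 for Itga1 and Itgb1, and 2 for Ddr2. Each condition had 1 library, so there were no replicate numbers to pair. The additive fit already sets P6 against P1 within each treatment, whereas the exact permutation tests did not use that matching. Depth limits Itga2 and Itga10, with 28 to 123 counts per library.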
